A study of Mus musculus with 8 samples.

Results

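Genes encoded by the mitochondrial genome were described in whole-liver RNA-seq of 8 mice. They were taken as every row placed on chrM in the deposited tables, which gave 37 genes of 53816 gene IDs. Of these, 13 encode proteins, 22 encode tRNAs and 2 encode rRNAs. All 8 mice had undergone bile duct ligation, surgery that stops bile from leaving the liver and injures it by cholestasis. The control group was 4 wild-type mice. The other group was 4 mice labelled as overexpressing Myc in liver sinusoidal endothelial cells (LSEC). The sources used here do not give the promoter or Cre line, the age, the sex or the strain. Myc itself did not separate the groups, at 89.2 to 554 TPM in the controls and 25.6 to 356 TPM in the other mice. In whole liver the Myc of other cells is measured too, so these values cannot check a change limited to LSEC. The second group is called Myc-labelled, and directions are those of the labels alone.

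The mitochondrial genome is a small circle that keeps only a few genes for oxidative phosphorylation, the process by which the electron transport chain and ATP synthase make ATP. Both strands are transcribed into long precursors. The tRNAs lie between most of the other genes, and their excision frees the mRNAs and rRNAs, most of which then receive short poly(A) tails. The remaining subunits, and the proteins that copy, cut, modify and translate mitochondrial RNA, are encoded in the nucleus. Hepatocytes are rich in mitochondria and carry most of the RNA of a whole liver. Endothelial cells are a small part of it.

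Libraries held 5.29 to 6.74 Gb of aligned bases, derived from the deposited coverage and FPKM. Hepatocyte markers were abundant, with Alb at 41497 to 95736 TPM, and endothelial markers were present at a lower level, with Cdh5 at 9.73 to 20.4 TPM. Striated muscle markers summed to at most 3.38 TPM in any library, and 2 of the 7 were at 0 throughout. TPM, a transcript's share of its library, is scaled for gene length and sums to 1000000 in each library. Means are given ± SD over 4 libraries. In bulk tissue, fewer cells of a type and less RNA per cell cannot be told apart.

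Part of the mitochondrial genome has a nearly identical copy in the nucleus, with an annotated copy of 7 of the 13 mRNAs. All 7 copies are annotated as unprocessed pseudogenes, side by side on the minus strand of chr1:24611535-24616197 (mm10). They were found by aligning the GENCODE M21 transcripts of the 37 genes to all other transcripts, and keeping matches of at least 99% identity over at least 200 bases. Of the 7, 5 matched at 100% over the aligned stretch. Their outermost aligned bases are at chrM:6390-11042, a stretch of 4653 bases, beside 4663 bases from the first copy to the last on chromosome 1. Another 6 members lie inside that stretch without an annotated copy of this length: mt-Atp8, whose last 43 bases are shared with mt-Atp6, and the tRNAs mt-Ts1, mt-Td, mt-Tk, mt-Tg and mt-Tr, which are shorter than the 200-base minimum. Between the copies of mt-Co2 and mt-Atp6 there are 233 bases on chromosome 1, and between those genes on chrM there are 230; the bases between copies were not compared. The copy of mt-Atp6, the proton channel subunit of ATP synthase, is Gm10925 (chr1:24613974-24614651), and their 678 aligned bases are the same. The first 60 of these, shown because reads from them fit both places equally, are:
mt-Atp6 and Gm10925: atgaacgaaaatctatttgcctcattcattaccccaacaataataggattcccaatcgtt
The copy of mt-Nd3, a small membrane subunit of complex I, differs at 1 of 345 bases. The difference is T3C, counted from base 1 of the mitochondrial gene, and the capital marks it:
mt-Nd3: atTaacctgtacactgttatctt
Gm28438: atCaacctgtacactgttatctt
The copy of mt-Co1 (Gm29216) covers its last 483 bases and differs at A1066T:
mt-Co1 from base 1063: ggaAttgttttatccaactcatcc
Gm29216: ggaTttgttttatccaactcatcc

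The copies were listed at almost the level of their mitochondrial genes. For Gm10925, control replicates 1 to 4 had 8858, 8459, 10583 and 7477 TPM, and Myc-labelled replicates 1 to 4 had 11024, 9627, 9914 and 10774 TPM. The ratio of mt-Atp6 to this copy was 0.952 to 0.986 over the 8 libraries. The ratio was 0.989 to 1.01 for mt-Co2 and Gm28661, 1.001 to 1.02 for mt-Co3 and Gm28437, 1.001 to 1.02 for mt-Nd3 and Gm28438, and 0.992 to 1.03 for mt-Nd4l and Gm10222. Where the copy spans only a part of the gene, the ratio was higher, at 2.48 to 3.46 for mt-Co1 and 1.65 to 2.13 for mt-Nd4. The sources used here do not say how reads that fit both places were assigned, so the levels of these 7 genes are uncertain. The same may hold for the other 6 members inside the stretch, which was not tested. The other nuclear matches, 8 rows at 90 to 99% identity over at least 200 bases, were listed at no more than 19.2 TPM.

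**Figure D1:**
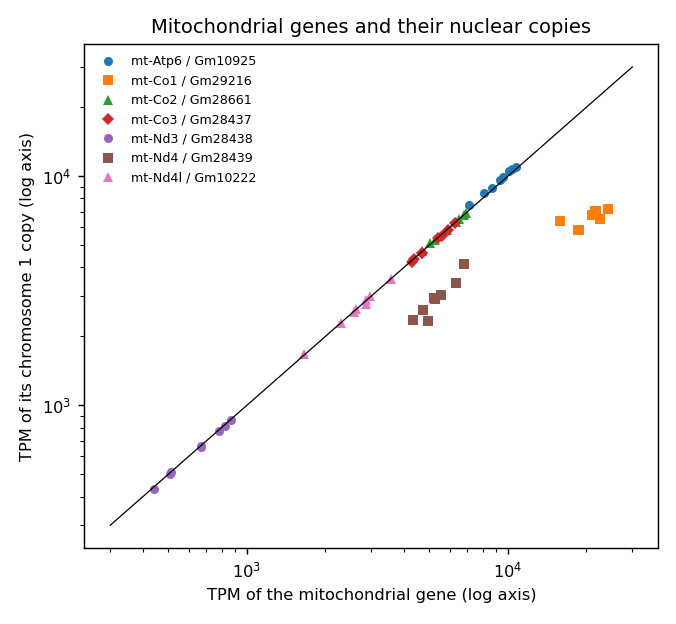
TPM of the 7 mitochondrial genes with a chromosome 1 copy (x axis, log) against TPM of the copy (y axis, log), 1 point per library. Points on the line have equal values; 5 pairs lie on or close to it in all 8 libraries, while mt-Co1 and mt-Nd4, whose copies are partial, lie below it.

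The 37 genes together took a larger share of the transcript pool in every Myc-labelled library than in any control. They made up 8.23, 8.53, 9.60 and 7.73% of TPM in control replicates 1 to 4. In Myc-labelled replicates 1 to 4 they made up 11.2, 10.02, 10.03 and 10.9%. The means were 8.52 ± 0.790% and 10.6 ± 0.624% (n = 4 each), a ratio of 1.24. No test is given for a sum over these genes. Of aligned bases, they took 3.87 to 4.63% in the controls and 4.96 to 5.48% in the Myc-labelled libraries. The groups also stayed apart when the TPM of the chromosome 1 copies was added (10.5 to 13.2% against 13.4 to 15.1%). Scaling to nuclear genes only cannot change the order of the libraries in this share, so it was no further check. The groups overlapped after median-of-ratios scaling, at 7.54 to 9.64% in the controls and 9.13 to 11.7% in the Myc-labelled libraries. There Myc-labelled replicate 1 fell below control replicate 3.

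**Figure D2:**
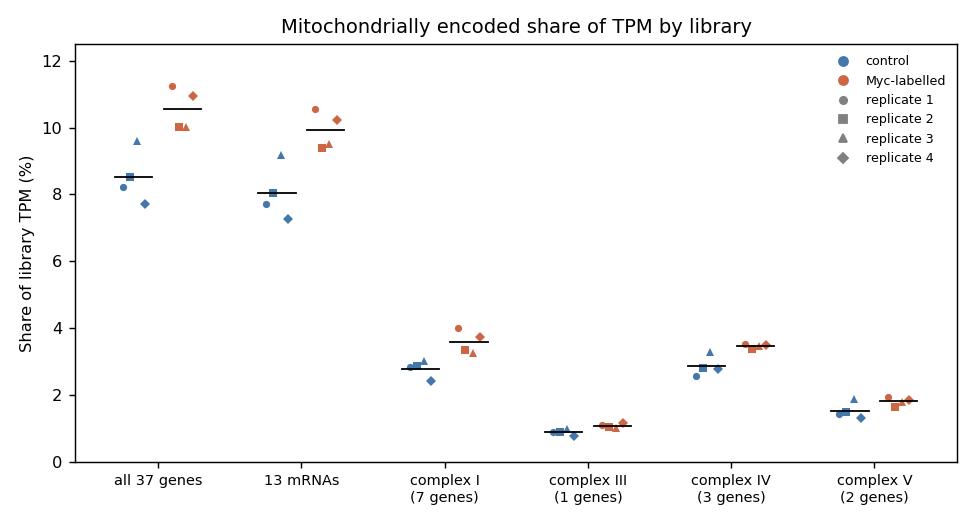
Share of library TPM (y axis, percent) for all 37 genes, the 13 mRNAs and the mRNAs of each respiratory complex, with 1 point per library and the group mean as a line. The Myc-labelled points for all 37 genes sit between 10.02 and 11.2%, above the control points at 7.73 to 9.60%.

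By class, the mRNAs carried nearly all of it, at 8.05 ± 0.815% of TPM in the controls and 9.92 ± 0.570% in the Myc-labelled libraries. The 5 mRNAs outside the stretch with chromosome 1 copies summed to 2.47 to 3.11% and 3.41 to 3.98%, which did not overlap. The 7 mRNAs with a copy summed to 4.19 to 5.190% and 5.188 to 5.72%, which overlapped by little. The tRNA rows summed to 0.413 ± 0.0558% and 0.564 ± 0.0716%. The rRNAs, which are abundant in total RNA, summed to only 0.0593 ± 0.0385% and 0.0673 ± 0.00969% in these libraries made with an mRNA kit. By complex, the 7 complex I mRNAs summed to 2.78 ± 0.250% in the controls and 3.58 ± 0.356% in the Myc-labelled libraries. The single complex III mRNA gave 0.879 ± 0.0940% and 1.07 ± 0.0629%. The 3 complex IV mRNAs gave 2.87 ± 0.306% and 3.46 ± 0.0670%, and the 2 complex V mRNAs 1.52 ± 0.251% and 1.80 ± 0.122%. The groups did not overlap for complexes I, III and IV, but complexes III and IV overlapped after median-of-ratios scaling. They overlapped for complex V, for the tRNAs and for the rRNAs.

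Gene by gene, none of the 37 passed the test. Differences were tested with limma on log2(TPM + 1), over the 13055 genes that averaged 1 TPM or more, which kept 34 of the 37. With Benjamini-Hochberg adjustment over all of these, limma called 0 members at an adjusted p under 0.05, as it called 0% of all genes. At an unadjusted limma p under 0.05 8 members were higher with the Myc label and 0 were lower, against 1.26% and 0.597% of all genes tested. These 8 are 23.5% of the 34. The groups did not overlap in 6 of the 34, all higher, against 0.935% of all genes on that side and 0.322% on the lower side, judged on TPM without further scaling. With median-of-ratios scaling, mt-Co1, mt-Cytb and mt-Ty of these 6 overlapped between the groups, through Myc-labelled replicate 1. For mt-Co1, Myc-labelled replicate 4 also fell below control replicate 3. Of the 34, 33 had a log2 difference above 0, as had 58% of all genes. The median difference was 0.33 over the 34 and 0.037 over all genes tested. The members share libraries, precursors and boundaries, so they are not independent of each other and these counts are a description. Differences are Myc-labelled minus control on the log2(TPM + 1) scale, given ± SE, and this scale understates changes of low genes.

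**Figure D3:**
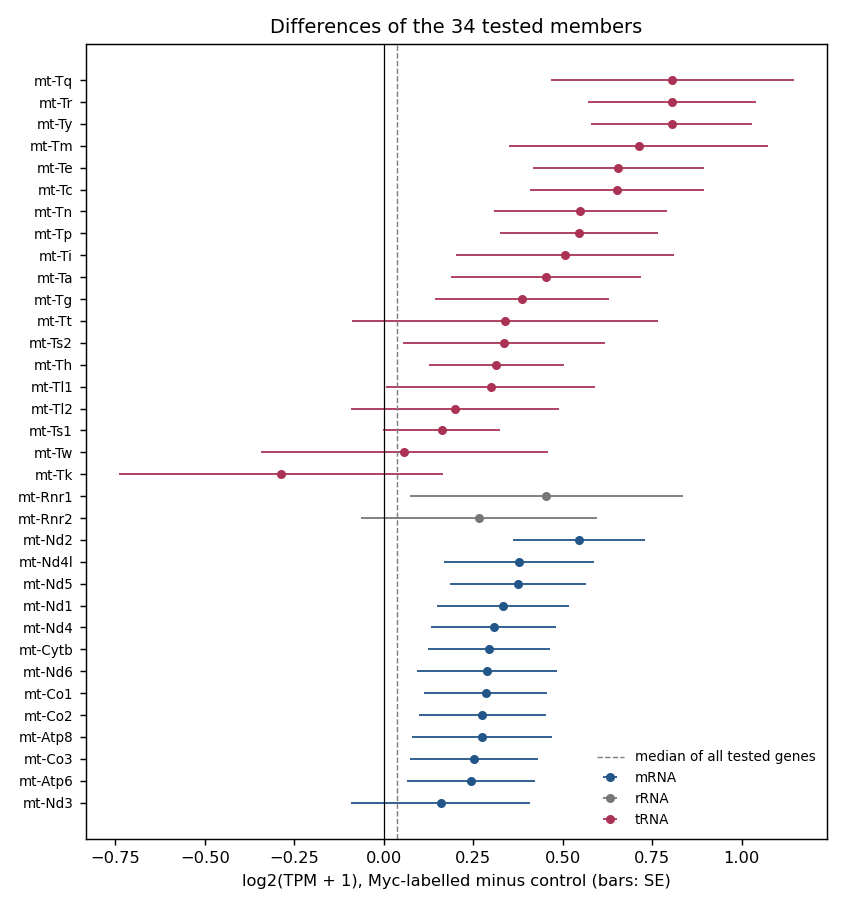
Difference in log2(TPM + 1), Myc-labelled minus control (x axis), for the 34 tested members, with bars of 1 SE and the median of all tested genes at 0.037 as a dashed line. All members but mt-Tk lie above 0, and the mRNAs lie between 0.16 and 0.55.

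Complex I takes electrons from NADH and pumps protons, and the mitochondrial genome encodes 7 subunits of its membrane arm. The mRNA that differed most was mt-Nd2 (ENSMUSG00000064345.1, chrM:3914-4951, plus strand). Control replicates 1 to 4 had 5575, 4977, 5072 and 4838 TPM, and Myc-labelled replicates 1 to 4 had 7971, 7186, 6017 and 8957 TPM. All 4 Myc-labelled values lay above all 4 controls, and the controls were close together. The mt-Nd2 difference was 0.55 ± 0.18 (limma unadjusted p = 0.0124, adjusted p = 0.9998), with a 95% interval of 0.14 to 0.95. Over the 20 other settings it ranged from 0.46 to 0.65 and the unadjusted limma p from 0.00328 to 0.0468. For mt-Nd1, the subunit where the membrane arm meets the quinone site, the controls had 7249, 7245, 7713 and 5452 TPM. The Myc-labelled libraries had 9811, 8598, 7831 and 8405 TPM for this gene. The groups did not overlap, although Myc-labelled replicate 3 exceeded control replicate 3 by little, and the difference was 0.33 ± 0.18 (limma unadjusted p = 0.0977).

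The other complex I mRNAs overlapped between the groups. For mt-Nd5, a proton-pumping subunit, values were 2827 to 4169.9 TPM in the controls and 4126 to 5107 TPM in the Myc-labelled libraries (difference 0.38 ± 0.19, limma unadjusted p = 0.0744). For mt-Nd4, another pumping subunit, they were 4314 to 5281 TPM and 5222 to 6821 TPM (0.31 ± 0.18). The mt-Nd4l row, whose reading frame overlaps that of mt-Nd4 by 7 bases, stood at 1661 to 2858 TPM and 2618 to 3559 TPM (0.38 ± 0.21, and 0.22 without control replicate 1). The only mRNA encoded on the minus strand, mt-Nd6, stood at 3442 to 5382 TPM and 4619.9 to 6115 TPM (0.29 ± 0.20). The lowest of the 13 was mt-Nd3, at 442 to 866 TPM over the 8 libraries, and both its highest and its lowest value lay in Myc-labelled libraries (0.16 ± 0.25). Its difference was 0.040 when Myc-labelled replicate 1 was left out, and came to 0.36 when Myc-labelled replicate 3 was.

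Complexes III and IV pass electrons on to cytochrome c and oxygen. The only complex III member is mt-Cytb (ENSMUSG00000064370.1, chrM:14145-15288, plus strand), which encodes cytochrome b. The controls had 8789.98, 8788, 9934 and 7630.5 TPM of it, and the Myc-labelled libraries 11002, 10258, 10192 and 11505 TPM. The groups did not overlap, and the difference was 0.29 ± 0.17 (limma unadjusted p = 0.111). In complex IV, the catalytic subunit gene mt-Co1 (ENSMUSG00000064351.1, chrM:5328-6872) had the highest level of the 13. The controls had 15829.5, 18783, 21088 and 18624 TPM and the Myc-labelled libraries 22576, 21779.8, 24107.5 and 21645 TPM. Here too no value of one group fell within the other, and the mt-Co1 difference was 0.28 ± 0.17 (limma unadjusted p = 0.126). Its partner mt-Co2, which receives electrons from cytochrome c, stood at 4701 to 6475 TPM and 5849 to 6927 TPM (0.28 ± 0.18). For mt-Co3 the values were 4305 to 5417 TPM and 4688 to 6261 TPM (0.25 ± 0.18). Both of these overlapped between the groups.

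Complex V is the ATP synthase, and its 2 members, mt-Atp8 and mt-Atp6, share 43 bases of 1 transcript in different frames. mt-Atp8 stood at 5474 to 8737 TPM in the controls and 7107 to 8625 TPM in the Myc-labelled libraries (0.27 ± 0.20). mt-Atp6 stood at 7115 to 10112 TPM and 9368 to 10734 TPM (0.24 ± 0.18). In both, control replicate 3 lay within or above the Myc-labelled range.

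**Figure D4:**
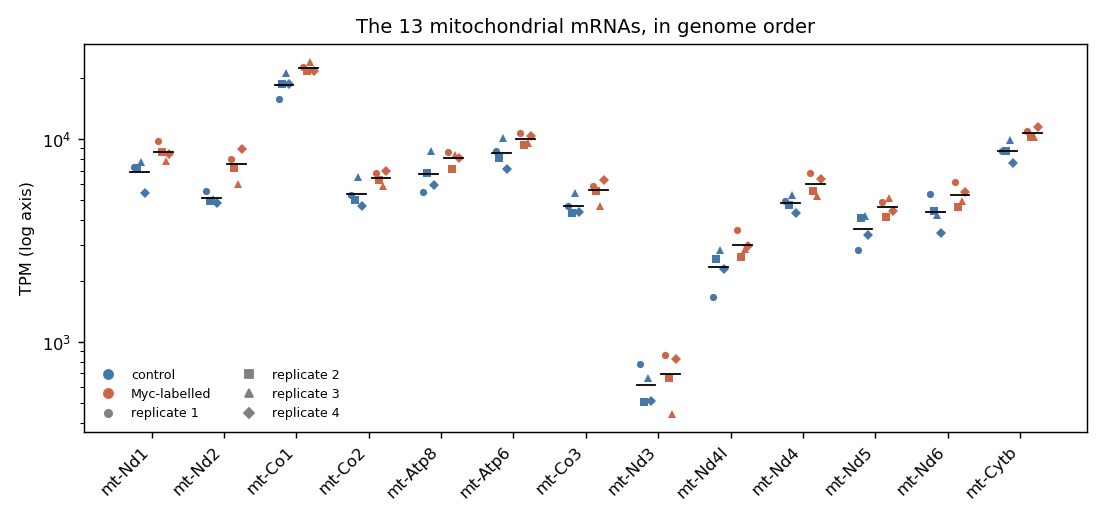
TPM (y axis, log) of the 13 mitochondrial mRNAs in genome order, with 1 point per library and the group mean as a line. mt-Co1 is highest at 15829.5 to 24107.5 TPM and mt-Nd3 lowest at 442 to 866 TPM; the groups are apart in mt-Nd1, mt-Nd2, mt-Co1 and mt-Cytb.

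The order of the mRNA levels depended on whether the chromosome 1 copies were counted. Over all 8 libraries, mt-Co1 averaged 20554 TPM, mt-Cytb 9762 TPM, mt-Atp6 9257 TPM and mt-Nd1 7788 TPM. The ranges of the last 3 of these 4 overlapped. Within libraries, mt-Cytb was above mt-Atp6 in 7 of 8, and mt-Atp6 above mt-Nd1 in 8 of 8. With the TPM of the copies added, mt-Atp6 came to a mean of 18846 TPM, mt-Co2 to 11833 TPM and mt-Co3 to 10247 TPM, all above mt-Cytb. mt-Nd3 was last of the 13 either way, at 658 TPM alone and 1311 TPM with its copy. The added copies changed no direction: the differences were then 0.25 for mt-Co1, 0.24 for mt-Atp6, 0.27 for mt-Co2 and 0.15 for mt-Nd3. TPM was added without adjusting for length, so the partial copies of mt-Co1 and mt-Nd4 count for too much in their sums and differences.

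The makeup of the mRNA pool overlapped between the groups for all 13. Of the summed TPM of the 13 mRNAs, mt-Co1 took 23.1 ± 2.11% in the controls and 22.8 ± 1.95% in the Myc-labelled libraries. mt-Cytb took 10.9 ± 0.362% and 10.8 ± 0.353%. The share of mt-Nd2 was 6.40 ± 0.716% and 7.57 ± 0.994%. Within groups, the coefficient of variation of the TPM of these 13 mRNAs was 6.27 to 21.8% in the controls and 5.02 to 27.4% in the Myc-labelled libraries.

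Single libraries stood apart in the ratios of some mRNAs to each other. In control replicate 1, mt-Nd6 was 1.90 times mt-Nd5, against 0.968 to 1.25 times in the other 7 libraries. The same library had mt-Atp6 at 1.59 times mt-Atp8, against 1.15 to 1.32 times elsewhere, and mt-Nd4 at 2.99 times mt-Nd4l, against 1.83 to 2.13 times. In Myc-labelled replicate 3, mt-Co1, which is not a neighbour of mt-Nd3, was 54.5 times that gene, against 20.3 to 37.1 times in the others. Each is 1 library of 4, and none of these ratios separated the groups.

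The 2 rRNA genes, mt-Rnr1 and mt-Rnr2, encode the RNAs of the small and large mitochondrial ribosome subunits. For mt-Rnr1, control replicates 1 to 4 had 247, 174, 159.99 and 634 TPM, and Myc-labelled replicates 1 to 4 had 414, 344, 307 and 355 TPM. Control replicate 4 was the highest of the 8, and the other 3 controls were the lowest. In mt-Rnr2 control replicate 4 was again the highest, with 219, 247, 161 and 529 TPM in the controls and 345, 353, 227 and 348 TPM in the Myc-labelled libraries. For mt-Rnr1 the difference was 0.45 ± 0.38 (limma unadjusted p = 0.26), and 0.89 without control replicate 4 (limma unadjusted p = 0.00215). In mt-Rnr2 it was 0.27 ± 0.33 (limma unadjusted p = 0.436), and 0.60 without that library (limma unadjusted p = 0.0295). Neither passed the adjusted threshold in either fit. That library also held the most of other RNAs that carry no poly(A) tail or overlap ribosomal RNA: Rn7sk was at 54.9 TPM, against 5.58 to 19.1 TPM elsewhere, and Gm42418 at 1071 TPM, against 47.8 to 175 TPM. The part of this in the rRNA difference was not tested.

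The tRNA rows spanned the widest range. The 6 tRNAs with the smallest unadjusted limma p are shown with their anticodons, the bases that read the codon, in capitals. Sequences are the GENCODE M21 transcripts, 5′ to 3′ as DNA letters. Each anticodon was placed by a 7-base loop closed by a 5-base stem, and all 6 stems paired fully. They are the tRNAs for tyrosine, arginine, glutamate, cysteine, proline and glutamine, and those for tyrosine and proline had groups that did not overlap:
mt-Ty: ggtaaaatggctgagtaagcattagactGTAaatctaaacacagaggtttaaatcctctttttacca
mt-Tr: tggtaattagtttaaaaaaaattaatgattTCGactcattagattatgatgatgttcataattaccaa
mt-Te: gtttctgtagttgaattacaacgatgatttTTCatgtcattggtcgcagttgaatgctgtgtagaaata
mt-Tc: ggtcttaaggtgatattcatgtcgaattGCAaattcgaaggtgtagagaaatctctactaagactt
mt-Tp: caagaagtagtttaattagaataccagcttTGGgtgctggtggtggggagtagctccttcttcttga
mt-Tq: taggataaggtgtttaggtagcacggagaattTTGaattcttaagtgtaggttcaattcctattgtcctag

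A tRNA row is short, at 59 to 75 bases, and most lie against a neighbour with few or no bases between. In these libraries such a row may hold mature tRNA, uncut precursor or the ends of neighbouring transcripts, which the tables do not separate. mt-Ty (ENSMUSG00000064350.1, chrM:5260-5326, minus strand) lies 1 base from mt-Co1. Control replicates 1 to 4 had 72.1, 144, 93.9 and 116 TPM, and Myc-labelled replicates 1 to 4 had 171, 184, 157 and 216 TPM. Every Myc-labelled value exceeded every control, and the difference was 0.80 ± 0.22 (limma unadjusted p = 0.00417, adjusted p = 0.9998). Over the other settings the mt-Ty difference ranged from 0.63 to 0.96, and its limma adjusted p was at least 0.896.

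mt-Tr (ENSMUSG00000064361.1, chrM:9808-9875, plus strand) lies between mt-Nd3 and mt-Nd4l, 1 base from each, inside the stretch with the chromosome 1 copies. It stood at 5.52, 5.22, 5.18 and 10.8 TPM in the controls, and at 9.43, 11.9, 11.8 and 15.0 TPM in the Myc-labelled libraries. Control replicate 4 lay within the Myc-labelled range and apart from the other controls. The difference was 0.81 ± 0.24 with it (limma unadjusted p = 0.00556) and 1.03 without it (limma unadjusted p = 0.000288), which did not pass the adjusted threshold either.

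mt-Te (chrM:14071-14139, minus strand) directly adjoins mt-Nd6 and had the highest mean of the 22. It stood at 1983, 1613, 1361 and 1033 TPM in the controls, and at 2587, 2212, 1747 and 2766 TPM in the Myc-labelled libraries (0.65 ± 0.24, limma unadjusted p = 0.0187). Only control replicate 1 reached into the Myc-labelled range. mt-Tp (chrM:15356-15422, minus strand) was nearly constant in the controls, at 223, 239, 238 and 225 TPM. In the Myc-labelled libraries it spread over 482, 253, 391 and 274 TPM, all higher (0.55 ± 0.22, limma unadjusted p = 0.0305). mt-Tc (chrM:5192-5257, minus strand) stood at 84.5 to 171 TPM in the controls and 148 to 226 TPM in the Myc-labelled libraries (0.65 ± 0.24, limma unadjusted p = 0.0214). mt-Tq (chrM:3772-3842, minus strand) stood at 15.0 to 43.1 TPM and 35.9 to 67.0 TPM (0.81 ± 0.34, limma unadjusted p = 0.0385). The last 2 overlapped between the groups.

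The tRNA rows of the 2 strands differed in summed level. The 8 minus-strand tRNAs summed to 0.355 ± 0.0463% of TPM in the controls and 0.491 ± 0.0553% in the Myc-labelled libraries. These groups did not overlap on TPM, but with median-of-ratios scaling Myc-labelled replicate 1 fell just below control replicate 1. Most of this sum lay in mt-Te and mt-Ts1, with control means of 1497 and 1335 TPM. The other minus-strand rows had control means of 27.8 (mt-Tq) to 231 TPM (mt-Tp), below the 372 TPM of plus-strand mt-Tl1. The 14 plus-strand tRNAs summed to 0.0580 ± 0.0135% and 0.0726 ± 0.0196%. At an unadjusted limma p under 0.05 there were 6 of the 8 minus-strand tRNAs, and 1 of the 11 plus-strand tRNAs tested, all higher, against 1.26% of all genes. When 1 library was left out, these became 2 to 6 and 1 to 2. Without control replicate 1 they were 2 and 2, without Myc-labelled replicate 1 or 4 they were 2 and 1, and without control replicate 3 or 4 they were 3 and 2. With array weights they were 5 and 4, and with the replicate number as a block 7 and 3. Whether the strands differ in response was not tested. Minus-strand rows lie opposite the plus-strand precursor. The sources used here do not give the strand of the reads, so RNA from the 2 strands cannot be told apart. mt-Ts1, the serine tRNA that overlaps the end of mt-Co1 by 3 bases on the other strand, stood at 1214 to 1498 TPM in the controls and 1445 to 1536 TPM in the Myc-labelled libraries (0.16 ± 0.16). Among plus-strand tRNAs the leucine tRNA mt-Tl1, between mt-Rnr2 and mt-Nd1, was highest, at 259.7 to 554 TPM and 277 to 561 TPM (0.30 ± 0.29). Its difference was 0.15 without control replicate 3 and 0.52 without Myc-labelled replicate 3. mt-Tn, the asparagine tRNA in a minus-strand run with mt-Ta, mt-Tc and mt-Ty, stood at 101 to 189.85 TPM and 148 to 232 TPM (0.55 ± 0.24, limma unadjusted p = 0.0431).

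Rows at the low end were close to undetected. mt-Tf, mt-Tv and mt-Td averaged under 1 TPM and were not in the test. mt-Tf, for phenylalanine, was listed at 0 in 4 of the 8 libraries and at no more than 0.858 TPM. mt-Tv, for valine, stood at 0.0786 to 0.775 TPM. mt-Td, for aspartate, stood at 2.13, 0.336, 0.592 and 2.48 TPM in the controls, and at 0.255, 0.133, 0.276 and 0.144 TPM in the Myc-labelled libraries. It was the only member whose Myc-labelled values all lay below the controls, at a coverage of 0.457 to 7.31 reads per base (log2 difference -0.87 ± 0.31 without the filter, limma adjusted p = 0.996). Of the members tested only mt-Tk, for lysine, had a difference below 0, at 3.75 to 10.4 TPM in the controls and 1.34 to 10.5 TPM in the Myc-labelled libraries (-0.29 ± 0.45). Its direction rested on Myc-labelled replicate 3, without which it was 0.15. The other 9 tRNA rows had differences of 0.06 (mt-Tw) to 0.71 (mt-Tm), with groups that overlapped.

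**Figure D5:**
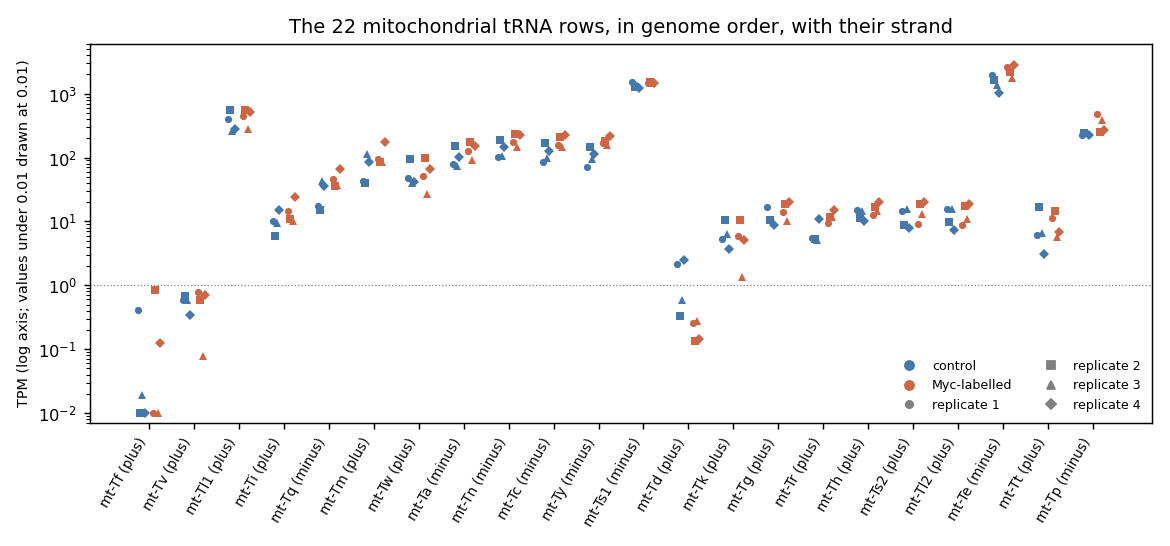
TPM (y axis, log) of the 22 tRNA rows in genome order with their strand, 1 point per library, values under 0.01 drawn at 0.01 and a dotted line at 1 TPM. mt-Te and mt-Ts1 lie above 1000 TPM, and mt-Tf, mt-Tv and mt-Td average under 1 TPM.

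The ends of the mRNAs differ in whether the gene itself holds the whole stop codon. In the GENCODE M21 sequences 10 of the 13 end in a complete stop codon, 8 in TAA and 2 in TAG. The other 3, mt-Co3, mt-Nd4 and mt-Cytb, end in a single T, which polyadenylation completes to a stop codon. The last 30 bases of these 3 are shown beside mt-Co1, with the stop or its first base in capitals:
mt-Co3: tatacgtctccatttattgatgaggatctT
mt-Nd4: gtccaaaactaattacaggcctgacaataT
mt-Cytb: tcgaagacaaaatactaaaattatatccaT
mt-Co1: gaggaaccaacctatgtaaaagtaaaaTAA
The 3 mRNAs with an incomplete stop had differences of 0.25 to 0.31, within the 0.16 to 0.55 of all 13.

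Nuclear genes of the same complexes lay on both sides of 0. Of 71 nuclear subunit genes of complexes I, III, IV and V, all tested, limma called 0 at an adjusted p under 0.05. At an unadjusted limma p under 0.05 there were also 0, against 1.26% higher and 0.597% lower over all genes. Of the 71, 32 had a difference above 0 and 39 below, where 58% of all genes were above 0. The median of the 71 was -0.0099, beside 0.29 for the 13 mitochondrial mRNAs and 0.037 for all genes. Their summed share was 1.31 ± 0.141% of TPM in the controls and 1.31 ± 0.263% in the Myc-labelled libraries. By complex, the median difference was -0.01 for 36 complex I genes, 0.01 for 9 complex III genes, -0.02 for 11 complex IV genes and 0.01 for 15 complex V genes. Ndufs7, a subunit of complex I, had the smallest p of the 71, at 123 ± 22.9 and 109 ± 16.1 TPM (limma unadjusted p = 0.41). Ndufb2 of the same complex stood at 30.8 ± 6.37 and 28.0 ± 9.87 TPM, Cox8a of complex IV at 429.6 ± 50.5 and 409.7 ± 69.9 TPM, and Atp5d of complex V at 361 ± 9.31 and 340.1 ± 50.4 TPM. In complex III, where 6 of 9 were above 0, Uqcr10 stood at 207 ± 28.2 and 191 ± 30.4 TPM and Uqcrc2 at 139 ± 7.03 and 151 ± 35.1 TPM. The summed mitochondrial mRNAs were 5.10, 6.48, 7.12 and 6.07 times the nuclear subunit mRNAs in control replicates 1 to 4. In Myc-labelled replicates 1 to 4 they were 7.13, 6.39, 10.3 and 7.42 times. These ranges overlapped, and Myc-labelled replicate 3, at 0.925% the lowest in nuclear subunits, set the top value. Whether mitochondrial and nuclear genes differ in response was not tested.

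No gene of 5 lists around mitochondrial gene expression passed the test. The lists were mitochondrial transcription and replication, RNA processing and turnover, tRNA and rRNA modification, aminoacyl-tRNA synthetases, and regulators of mitochondrial biogenesis. Of 94 genes in these 5 lists, 91 were tested, and limma called 0 at an adjusted p under 0.05, as it called 0% of all genes. At an unadjusted limma p under 0.05, 1 was higher and 0 were lower, against 1.26% and 0.597% of all genes. Of the 91, 51 had a difference above 0 and 40 below, where 58% of all genes were above 0. The median was 0.03, beside 0.037 for all genes. Among 17 tested genes of transcription and replication, 7 were above 0 and 10 below. The transcript terminator family gene Mterf2 stood at 2.95 ± 0.890 and 2.09 ± 1.03 TPM, and the rRNA methyltransferase gene Tfb1m at 10.1 ± 0.533 and 8.59 ± 2.33 TPM. Among 22 genes of RNA processing and turnover, 11 were above 0 and 11 below. Trmt10c, a subunit of the nuclease complex that cuts the 5′ ends of the tRNAs, stood at 7.42 ± 1.11 and 8.77 ± 1.75 TPM, and the deadenylase gene Pde12 at 2.80 ± 0.384 and 3.45 ± 0.539 TPM.

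Among 20 tRNA and rRNA modification genes, 11 were above 0 and 9 below. Yrdc, which makes a base modification of tRNAs that read codons starting with A, stood at 19.3 ± 3.26 and 26.6 ± 5.42 TPM (limma unadjusted p = 0.0359). The methyltransferase gene Trmt5 stood at 5.96 ± 0.847 and 4.67 ± 1.03 TPM. Among 21 tested aminoacyl-tRNA synthetase genes, whose products charge these tRNAs, 15 were above 0 and 6 below. Yars2, which charges mt-Ty with tyrosine, stood at 10.8 ± 2.19 and 14.6 ± 4.31 TPM, and Hars2 at 9.13 ± 0.370 and 11.2 ± 2.10 TPM. Among 11 tested regulators of mitochondrial biogenesis, 7 were above 0 and 4 below, with the deacetylase gene Sirt3 at 63.9 ± 14.7 and 49.5 ± 16.2 TPM and the nuclear receptor gene Esrra at 28.7 ± 5.02 and 23.1 ± 6.24 TPM.

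Marker lists of liver cell types overlapped between the groups in summed level. The 13 hepatocyte markers summed to 82073 to 136217 TPM in the controls and 78423 to 114619 TPM in the Myc-labelled libraries, and 10 of them were below 0. The 8 Kupffer cell markers, all below 0, summed to 806 to 1690 TPM and 636 to 1175 TPM. The 7 neutrophil markers, all above 0, summed to 14.5 to 70.1 TPM and 26.8 to 160 TPM. The 5 erythroid markers tested were all above 0, and that list summed to 354 to 1773 TPM and 735 to 1594 TPM. Sinusoidal endothelial markers were below 0 in 7 of 8, with sums of 156 to 219 TPM and 109 to 196 TPM. Cholangiocyte markers were above 0 in 6 of 6 tested, with sums of 98.1 to 322 TPM and 118 to 969.6 TPM. Most of these sums was Spp1, at 80.5 to 296 TPM and 104 to 939 TPM, the last in Myc-labelled replicate 4. Stellate cell and myofibroblast markers were above 0 in 6 of 7, with sums of 21.4 to 94.6 TPM and 28.3 to 197 TPM. Over all genes tested, 58% were above 0. The part of the marker shifts in the mitochondrial share was not tested. Xist stood at 0.045 to 0.057 TPM in control replicate 3 and Myc-labelled replicates 3 and 4, and at 32.8 to 43.3 TPM in the other 5 libraries. With log2 Xist as a covariate, limma put 7 members higher and 0 lower at an unadjusted p under 0.05, beside 148 and 54 of 13055 genes tested. The median difference of the 34 was then 0.34, and that of all genes 0.067.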

How the data were processed

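Per the labels' protocols, an mRNA kit was used for the liver RNA of 8 mice, and no poly(A) selection step or read strand is stated. The submitters' processing notes name HISAT2, StringTie and mm10, without versions. TPM, the main unit here, and FPKM were computed by the authors, per the file headers. The deposited tables also hold coverage, which is a signal per base that depends on depth. Repeated rows of a gene ID (10 to 15 per library) were summed. Aligned bases were derived as coverage over FPKM on chrM rows, assuming that StringTie divides by total aligned bases. All 37 chrM rows matched GENCODE M21 in ID and coordinates. Nuclear copies were sought with BLAST 2.17.0.

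The test was limma 3.58.1 in R 4.3.3, with a trended prior and the robust option. It was two-sided, on log2(TPM + 1), for genes averaging 1 TPM or more, and p-values were adjusted by Benjamini-Hochberg over all of these at 0.05. It was also run on simulated data with larger changes in genes drawn independently. That run does not bear on the smaller, linked differences of the members. The labels name separate libraries per group but not how mice were housed or handled, so p-values measure the spread between these libraries. The members, lists and tests were chosen with earlier results of these data known. By rule the text names all mRNAs and rRNAs, the 5 highest and 3 lowest tRNAs, up to 6 tRNAs per direction with the smallest unadjusted p (at most 0.1), and up to 2 genes per list, of which some are left out here. mt-Tk, mt-Tm and mt-Tw were singled out after their values were seen. Alternatives varied the pseudocount, filter, scaling, unit, prior and weights, added a replicate block, or dropped 1 library. Adding the nuclear copies and the Xist covariate was chosen after seeing the data. Other steps used Python 3.11.15 (pandas 2.3.3, scipy 1.17.1).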

Additional observations from a re-analysis of the deposited data

Results flagged for a closer look

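In 6 of 90 groups of 4 libraries, 1 library lay far from the other 3 by Dixon's ratio. Chance flags about 1 in 20 such groups. Control replicate 1 was high for mt-Tf at 0.411 TPM, and Myc-labelled replicate 2 for the same row at 0.858 TPM, where the other values were at or near 0. Myc-labelled replicate 3 was low for mt-Rnr2 at 227 TPM. Myc-labelled replicate 4 was high for mt-Tm at 175 TPM. Control replicate 2 was high for mt-Tw at 95.5 TPM, and control replicate 4 for mt-Tr at 10.8 TPM.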

How the results depend on the processing

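Limma called 0 members higher and 0 lower at an adjusted p under 0.05 in all 20 alternatives, where the smallest adjusted p of a member was 0.896. At an unadjusted limma p under 0.05, the 8 higher members became 4 to 9 when 1 library was left out: 5 without control replicate 1, and 4 without Myc-labelled replicate 1 or without Myc-labelled replicate 4. They became 11 with the replicate number as a block and 7 to 10 in the other settings, and the lower members were 0 except with no filter, where mt-Td made 1. Same-numbered libraries correlated by 0.128, -0.0579, 0.0652 and 0.0704 in their deviations from the group means, and not every library correlated best with its own number, so the numbers were not taken to pair the mice. Of 680 member differences under alternatives, 7 changed sign, in 3 tRNAs. When 1 library was left out, the mt-Tw difference was -0.22 to 0.40, and below 0 without control replicate 3 (-0.066) or 4 (-0.056) and without Myc-labelled replicate 2 (-0.22) or 4 (-0.035). That of mt-Tk was 0.32 with array weights, and -0.62 to 0.15 when 1 library was left out, above 0 without Myc-labelled replicate 3. That of mt-Tl2 was -0.0018 (without control replicate 4) to 0.39. Leaving out 1 library moved the difference by over 1.5 times in 16 of 34 members (5 mRNAs, 2 rRNAs and 9 tRNAs). The cause was not tested. The share of all 37 genes differed by 2.03 percentage points, by 1.77 to 2.39 when 1 library was left out, and by 1.14 on the FPKM scale, where the unit itself changes. The rRNA share differed by -0.00102 (without control replicate 3) to 0.027 (without control replicate 4). The median of all genes moved from 0.037 to -0.0043 with median-of-ratios scaling and to 0.115 without Myc-labelled replicate 3, beside 0.29 and 0.40 for the members.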
